A study of Mus musculus with 20 samples.

Results

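The nuclear genes of respiratory complex I were followed in RNA sequencing of mouse liver. Members were the protein-coding genes of the count table whose symbol starts with Ndufa, Ndufb, Ndufc, Ndufs or Ndufv followed by a digit, plus Ndufab1, so that the assembly factors named Ndufaf stayed out. This gave 38 genes of the 55401 gene IDs in the table, 21884 of which are nuclear protein-coding, and all 38 had enough counts to be tested. Entries with such symbols that are not protein-coding were left out, the pseudogenes Ndufab1-ps, Ndufs6b, Ndufb4c and Ndufa11b, and Ndufb1-ps, which the annotation types as a bidirectional promoter lncRNA. How reads were shared between Ndufab1, Ndufs6, Ndufb4 and Ndufa11 and these copies is not given in the sources used here, and the values of these members are uncertain to that extent.

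Complex I is the entry point of electrons from NADH into the mitochondrial respiratory chain. Its peripheral arm oxidises NADH in the N module and passes the electrons along iron-sulfur clusters to ubiquinone in the Q module, and its membrane arm pumps protons. The core subunits that carry these reactions are encoded partly in the nucleus and partly in the mitochondrial genome, and many accessory subunits around them, all nuclear, stabilise the complex. In liver the NADH comes largely from fatty acid oxidation and the tricarboxylic acid cycle.

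The livers came from C57BL/6 mice labelled WT. The 10 chow libraries (chow 1 to 10) had a standard diet, and the 10 HFD libraries (HFD 1 to 10) had 12 weeks of a high-fat diet with 60% fat, 20% carbohydrate and 20% protein. The design text mentions 3 high-fat groups, but the 10 HFD samples share 1 set of labels and were taken as 1 group. Whether each library is its own mouse is not labelled, and p-values therefore reflect the variation among libraries. Batches are not labelled either, and the diet cannot be told apart from a difference in handling.

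Some libraries stood apart. Mitochondrial counts made up 75.6% of HFD 1 and 94.4% of HFD 2, against 1.34% to 3.10% of the other 18 libraries, and nuclear rRNA made up 20.4% of chow 9 and 13.3% of HFD 1. Nuclear protein-coding genes kept 1906287 counts in HFD 1 and 2650330 in HFD 2, against 25369355 to 86492124 elsewhere, so the 38 members together rested on 6620 and 9376 counts there and on at least 74473 in every other library. Counts of calls for the complex, its modules and the gene lists are given with and without HFD 1 and HFD 2. Apoe, which encodes the remnant ligand apolipoprotein E, was at 12730 to 17316 CPM (counts scaled to a library size of 1e+06 with TMM factors) in chow, at 10117 CPM in HFD 6 and at 15.7 to 819 CPM in the other 9 HFD libraries, all 20 being labelled WT. A difference in Apoe genotype cannot be told apart from the diet in what follows.

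Transcripts of complex I subunits in every module of the complex were lower in HFD livers by a moderate amount. Of the 38 members 19 were lower in HFD and 0 higher in edgeR's quasi-likelihood test (adjusted p under 0.05, Benjamini-Hochberg over 14542 genes), against a background of 7.05% of all tested genes lower and 13.0% higher. At an unadjusted p under 0.05 the counts were 26 lower and 0 higher. The share of all tested genes at that unadjusted threshold is not given here, and the background above is for adjusted p. The 26 members therefore cannot be read against a background. The log2 change (HFD minus chow) was below 0 for 36 of 38 members and its median was −0.43, whereas the median of all tested genes was 0.02. Single members ranged from −0.70 for Ndufb9 to 0.38 for Ndufb2.

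Without HFD 1 and HFD 2, 23 members were lower and 0 higher, against backgrounds of 10.4% and 17.9%, all 38 changes were below 0, and the median was −0.39. Of the calls, 16 were made with and without these libraries, those of Ndufa4, Ndufb5 and Ndufs6 with all libraries but not without them, and those of Ndufa10, Ndufa12, Ndufb2, Ndufb4, Ndufs3, Ndufs7 and Ndufv3 without them but not with them. The other 12 members passed in neither fit. The calls rested on the scaling: with library totals alone, in which the mitochondrial counts of HFD 1 and HFD 2 enter the scale, 0 members passed (0 at an unadjusted p under 0.05) against a background of 0.640%, although the median was −0.50.

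**Figure D1:**
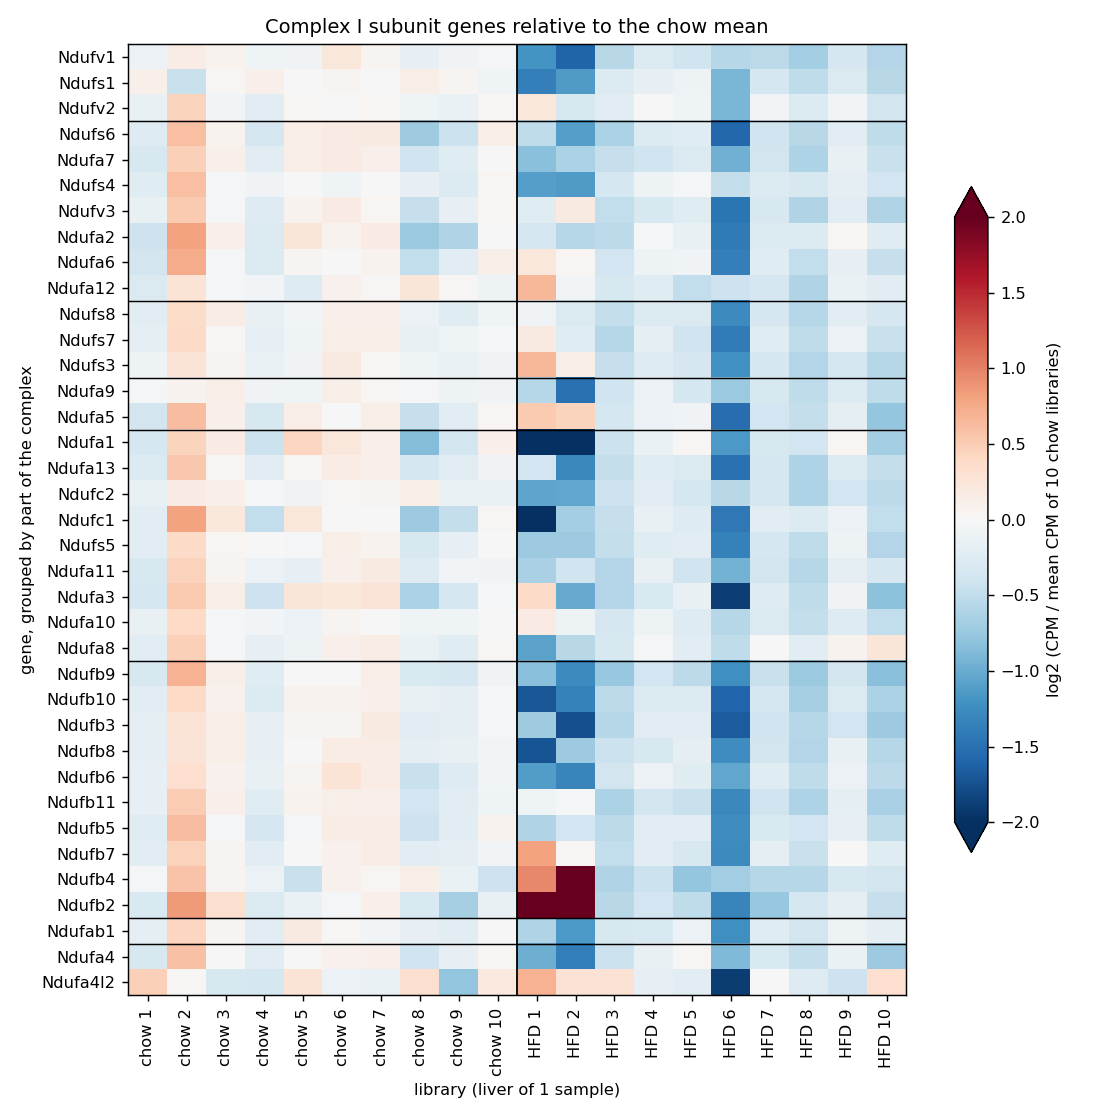
Heat map of the log2 ratio of each CPM value to the gene's mean over 10 chow libraries, for 37 of the 38 genes (rows, grouped by part of the complex between horizontal lines) and 20 libraries (columns). The chow columns are pale except chow 2, the HFD columns are mostly blue with HFD 6 the deepest, and HFD 1 and HFD 2 mix dark blue with red, which is strongest for Ndufb2 and Ndufb4.

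The shift was also looked at library by library. In each library the median over the 38 members of the log2 CPM, taken from each gene's chow mean, lay between −0.21 and 0.48 in chow. In HFD it was −0.57, −0.61, −0.46, −0.21, −0.22, −1.21, −0.32, −0.50, −0.15 and −0.47 for HFD 1 to 10. All 10 HFD medians were below 0. That of HFD 9 lay within the chow range and those of HFD 4 and HFD 5 just under it, so the diets overlapped at this level. The median over all tested genes was between −0.03 and 0.033 in every library except HFD 1 (−0.76) and HFD 2 (−0.30), where the genes as a whole also read low. In HFD 1 the members' median (−0.57) lay above that of all tested genes, so the members were not low relative to other genes there.

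HFD 6 and chow 2 lay at opposite ends. In HFD 6 all 38 members were below their chow mean, with a median of 0.433 times the chow level, and 21 members had their lowest HFD value there. In chow 2 the median was 1.39 times the chow level, 34 members had their highest chow value, and Ndufs1 had its lowest. Transcript length moved with these libraries: with all tested genes cut into 3 equal bins by length, the bin of short genes (57 to 2866 bases) had a median of 0.23 in chow 2 and −0.25 in HFD 6, relative to the median of the diet, and the bin of long genes (5480 bases and over) −0.30 and 0.15. Of the members 30 fall in the short bin, 5 in the middle and 3 in the long bin. The part of length in the members' change was not tested. Over all tested genes, the share called lower was 9.82% in the short bin, 6.77% in the middle and 4.56% in the long bin, and 16 of the 30 short members, 2 of 5 and 1 of 3 were lower.

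With chow 2 left out 14 members were lower, against a background of 5.64%, and the median was −0.36. With HFD 6 left out 18 were lower, against a background of 8.26%. Chosen after seeing the data, a fit without chow 2, HFD 1, HFD 2 and HFD 6 gave 21 lower members against a background of 15.0% and a median of −0.27, and 1 without HFD 1, HFD 2, HFD 6 and HFD 10 gave 21 against a background of 13.1% and a median of −0.29. The median change was smaller in these fits, while each still called 21 members.

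**Figure D2:**
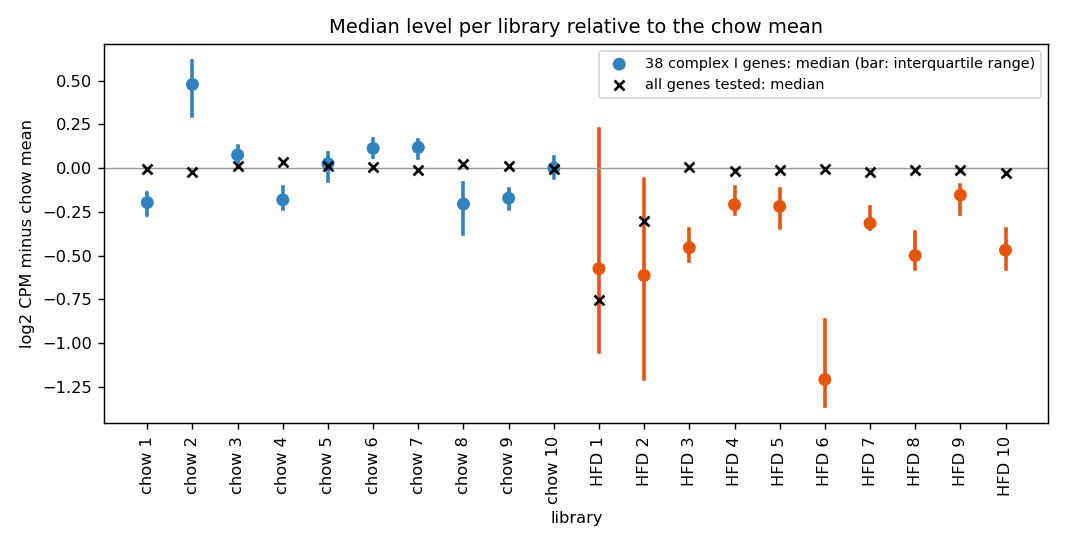
Median log2 CPM per library relative to the gene's chow mean, for the 38 complex I genes (circles, with bars over the interquartile range of the genes, blue for chow and orange for HFD) and for all tested genes (crosses). The circles of all 10 HFD libraries lie below 0, from −0.15 in HFD 9 to −1.21 in HFD 6, and that of chow 2 stands highest at 0.48.

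All 10 HFD libraries lay below all 10 chow libraries for 6 members, among them Ndufb9, Ndufb3, Ndufv1, Ndufc2 and Ndufa9, against a background of 2.70% of tested genes. With HFD 3 to 10 alone this held for 7 members, Ndufs3 being the addition, against a background of 3.41%. For the other members the diets overlapped in at least 1 library.

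The N module holds the NADH-oxidising end of the peripheral arm, and 4 of its 10 members were lower in HFD (median −0.39), and 5 of 10 without HFD 1 and HFD 2 (median −0.34). Ndufv1, the flavin-bearing subunit that takes electrons from NADH, read 149.9, 161 and 197 CPM in chow (lowest, median and highest library) and 55.1, 114 and 139 CPM in HFD. The diets did not overlap, and HFD 1 and HFD 2 were the lowest. It fell from 167 ± 15.1 to 108 ± 25.9 CPM (mean ± SD, n = 10 each), a log2 change of −0.62 (SE 0.139, edgeR adjusted p = 0.00285) and −0.45 without HFD 1 and HFD 2 (adjusted p = 0.000168). The gene lies on chromosome 19, 4007384 to 4012806 (GRCm38, minus strand).

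Ndufs1, the iron-sulfur subunit that passes electrons along the N module, read 67.8, 94.6 and 100.1 CPM in chow and 35.8, 68.7 and 86.4 CPM in HFD. Its lowest chow library was chow 2, which overlapped 5 of the HFD libraries, and the other 9 chow libraries were above every HFD library. Its log2 change was −0.51 (SE 0.145, edgeR adjusted p = 0.0158), and −0.34 without HFD 1 and HFD 2 (adjusted p = 0.0145). Ndufs1 is on chromosome 1, 63143596 to 63176833 (minus strand).

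Ndufv2, the partner of Ndufv1 that also carries an iron-sulfur cluster, was not called. It read 78.0, 88.7 and 123 CPM in chow and 47.9, 81.7 and 106 CPM in HFD, with HFD 6 lowest and HFD 1 highest, and 4 of the 10 HFD libraries lay under the chow range. With all libraries the log2 change was −0.18 (SE 0.122, edgeR adjusted p = 0.319), and −0.19 (adjusted p = 0.228) without HFD 1 and HFD 2. Ndufv2 is on chromosome 17, 66078638 to 66101559 (minus strand).

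The ratio of Ndufv1 to Ndufv2 counts within a library does not depend on the scaling between libraries. It was looked at after the values of both genes were seen, and is given with no test. It was 1.51 to 2.19 in chow (median 1.88) and 0.694 to 2.36 in HFD (median 1.48), with 6 of 10 HFD libraries below the lowest chow library. HFD 1 and HFD 2 had the lowest ratios, 0.694 and 0.756, and HFD 6 the highest of all 20. Among HFD 3 to 10 the ratio was 1.31 to 2.36, and 4 of 8 lay below the lowest chow library.

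Of the 7 accessory subunits of the N module 2 were lower, Ndufs6, a zinc-binding subunit, and Ndufa7. Their log2 changes were −0.55 (SE 0.171, edgeR adjusted p = 0.0263) and −0.50 (SE 0.125, adjusted p = 0.00749). Ndufs4, a late-assembling subunit whose loss causes Leigh-like disease in mice, had −0.39 (adjusted p = 0.0575) and passed in neither fit. Ndufv3, Ndufa2, Ndufa6 and Ndufa12 were between −0.38 and −0.18 and were not called with all libraries. Ndufa12 showed how HFD 1 bore on single members: HFD 1 read 38.7 CPM, above every chow library, whereas HFD 3 to 10 read 16.2 to 22.3 CPM against 20.1 to 29.5 CPM in chow.

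The Q module, where ubiquinone is reduced, had 3 of its 6 members lower (median −0.37), and 5 of 6 without HFD 1 and HFD 2.

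Ndufs8, an iron-sulfur subunit on the path to ubiquinone, read 59.7, 67.4 and 91.2 CPM in chow and 29.3, 56.8 and 66.9 CPM in HFD. HFD 1 and, by a small margin, HFD 9 (60.2 CPM) reached into the chow range, HFD 6 was lowest, and 8 of 10 HFD libraries were under that range. Its log2 change was −0.39 (SE 0.124, edgeR adjusted p = 0.0318) and −0.41 without HFD 1 and HFD 2 (adjusted p = 0.0157). Ndufs8 is on chromosome 19, 3908863 to 3912774 (minus strand).

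Ndufs7, which holds the last iron-sulfur cluster before ubiquinone, and Ndufs3, a structural core subunit, were called without HFD 1 and HFD 2 but not with them. Ndufs7 read 28.1, 30.7 and 41.6 CPM in chow and 12.1, 25.7 and 36.3 CPM in HFD. Its log2 change was −0.35 (SE 0.140, edgeR adjusted p = 0.0810) with all libraries and −0.41 (adjusted p = 0.0250) without HFD 1 and HFD 2. In Ndufs7 as in Ndufs3 HFD 1 was the highest HFD library and HFD 6 the lowest.

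Ndufs3 read 75.4, 78.7 and 100.3 CPM in chow and 35.7, 65.2 and 132 CPM in HFD, where HFD 1 stood above every chow library. The log2 change was −0.26 (SE 0.164, edgeR adjusted p = 0.276) with all libraries and −0.46 (adjusted p = 0.00317) without HFD 1 and HFD 2, where 8 of 8 HFD libraries were under the chow range. Ndufs7 is on chromosome 10, 80249121 to 80256794 (plus strand), and Ndufs3 on chromosome 2, 90894634 to 90904827 (minus strand). Of the accessory pair of this module, Ndufa9, which sits where the peripheral arm meets the membrane, was lower (−0.49, SE 0.128, adjusted p = 0.00979), and Ndufa5 was not called (−0.20, adjusted p = 0.500).

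**Figure D3:**
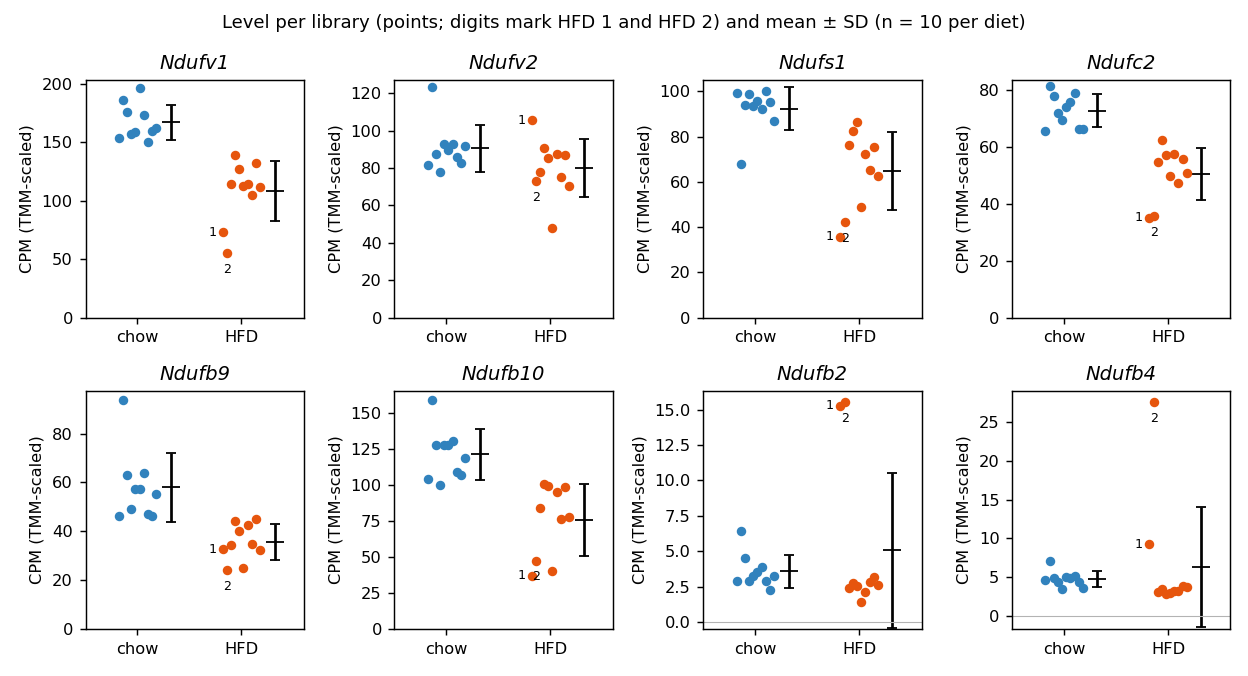
CPM per library for 8 members in chow (blue points) and HFD (orange points, digits marking HFD 1 and HFD 2), with the mean ± SD over 10 libraries beside each group. Ndufv1, Ndufc2 and Ndufb9 do not overlap between diets, Ndufv2 overlaps broadly, and the HFD means of Ndufb2 and Ndufb4 (5.06 and 6.31 CPM) are set by HFD 1 and HFD 2.

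In the membrane arm accessory subunits were lower in either portion. In the proximal arm, next to the Q module, 5 of 9 were lower without HFD 1 and HFD 2 (median −0.39) and 4 of 9 with all libraries (median −0.49): Ndufa13, also known as GRIM-19, Ndufc2, Ndufs5 and Ndufa11. Ndufc2 varied little within a diet, at 65.5, 72.9 and 81.4 CPM in chow and 35.2, 52.8 and 62.6 CPM in HFD, without overlap, and its log2 change was −0.52 (SE 0.109, edgeR adjusted p = 0.00159). Ndufa1, a small membrane subunit needed for assembly, had a change of like size that did not pass. It read 21.6, 42.2 and 53.5 CPM in chow and 5.77, 29.7 and 40.5 CPM in HFD, with a log2 change of −0.56 (SE 0.265, adjusted p = 0.142).

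The HFD values of Ndufa1 overlapped those of chow in 7 of 10 libraries, and the values of HFD 1 and HFD 2 came from 20 and 54 counts. Ndufc1, Ndufa3, Ndufa10 and Ndufa8, also of the proximal arm, were between −0.50 and −0.22 and were not called. Of these, Ndufa10 was called without HFD 1 and HFD 2 (−0.31, edgeR adjusted p = 0.00903).

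In the distal arm, at the far end of the proton-pumping domain, 7 of 10 members were lower (median −0.46), 8 of 10 without HFD 1 and HFD 2. Ndufb9, a subunit of the LYR family that binds an acyl carrier protein, had the lowest log2 change of all members. It read 46.1, 56.3 and 93.9 CPM in chow and 24.1, 34.6 and 45.0 CPM in HFD, without overlap, with chow 2 far above the other chow libraries. The log2 change was −0.70 (SE 0.146, edgeR adjusted p = 0.00148), 0.614 of the chow level, and −0.60 without HFD 1 and HFD 2 (adjusted p = 0.00337). The gene lies on chromosome 15, 58933756 to 58939488 (plus strand).

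Ndufb10, a cysteine-rich subunit facing the intermembrane space, read 100.1, 123 and 159 CPM in chow and 36.9, 80.9 and 100.3 CPM in HFD. HFD 4 reached into the chow range by a small margin and the other 9 HFD libraries were below it. This was a log2 change of −0.68 (SE 0.178, edgeR adjusted p = 0.00979), and −0.50 without HFD 1 and HFD 2 (adjusted p = 0.0127). The gene lies on chromosome 17, 24722060 to 24724478 (minus strand).

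Ndufb3, a small membrane-spanning subunit, read 49.8, 58.4 and 69.8 CPM in chow and 17.1, 38.7 and 49.7 CPM in HFD. Its diets did not overlap, though HFD 4 and chow 8 nearly touched. The log2 change was −0.64 (SE 0.168, edgeR adjusted p = 0.00997). Ndufb8, often used as an antibody target for assembled complex I, read 63.2, 70.7 and 86.8 CPM in chow and 21.9, 51.2 and 65.0 CPM in HFD, a log2 change of −0.56 (SE 0.155, adjusted p = 0.0142) with overlap in 2 of the HFD libraries. Ndufb6, Ndufb11 and Ndufb5 were lower by 0.50, 0.43 and 0.43 on the log2 scale, and Ndufb7 was not called (−0.16, adjusted p = 0.562).

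Ndufb2 and Ndufb4, distal arm subunits at low levels in this table, had the highest log2 changes, and both rested on HFD 1 and HFD 2. Ndufb2 read 2.26, 3.25 and 6.43 CPM in chow. In HFD it read 15.3 and 15.5 CPM in HFD 1 and HFD 2 and 1.44 to 3.17 CPM in HFD 3 to 10. The log2 change was 0.38 (SE 0.404, edgeR adjusted p = 0.543), and −0.49 without HFD 1 and HFD 2, when Ndufb2 was called lower (adjusted p = 0.0491).

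Ndufb4 read 3.51, 4.79 and 7.08 CPM in chow. Of the HFD libraries, HFD 1 read 9.23 CPM, HFD 2 read 27.6 CPM, and the other 8 read 2.79 to 3.81 CPM. Its log2 change was 0.33 (SE 0.379, edgeR adjusted p = 0.581) and −0.50 (adjusted p = 0.00480) without HFD 1 and HFD 2. In either gene the sign also turned with library totals alone and with limma voom. The values of HFD 1 and HFD 2 came from 53 and 89 counts for Ndufb2 and from 32 and 158 counts for Ndufb4. Ndufb2 is on chromosome 6, 39592574 to 39603382 (plus strand), and Ndufb4 on chromosome 16, 37647170 to 37654453 (minus strand).

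The remaining members are known for other functions. Ndufab1 is the mitochondrial acyl carrier protein, which serves lipoic acid and fatty acid synthesis besides complex I. It read 11.3, 12.9 and 17.5 CPM in chow and 5.59, 10.5 and 12.1 CPM in HFD, with 7 of 10 HFD libraries under the chow range, and was not called (−0.41, SE 0.148, edgeR adjusted p = 0.0559). Ndufa4 carries a complex I name and is found with complex IV. It read 157, 208 and 311 CPM in chow and 78.8, 151 and 210.1 CPM in HFD. It was lower with all libraries (−0.48, SE 0.167, adjusted p = 0.0447) but not without HFD 1 and HFD 2 (−0.32, adjusted p = 0.0881).

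Ndufa4l2, its hypoxia-responsive relative, was near the bottom of the range of levels. It read 0.829, 1.39 and 1.99 CPM in chow and 0.383, 1.35 and 2.31 CPM in HFD, HFD 6 lying below and HFD 1 above the chow range and the other 8 HFD libraries within it, with a log2 change of −0.07 (SE 0.249, edgeR adjusted p = 0.879). Without Ndufa4 and Ndufa4l2, 18 of 36 members were lower and the median stayed at −0.43. Of the core subunits 4 of 7 were lower (median −0.39) and of the accessory subunits 14 of 29 (median −0.43). The counts were 6 of 7 (median −0.41) and 17 of 29 (median −0.39) without HFD 1 and HFD 2, so the order of the medians turned, and no test was made between core and accessory subunits.

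**Figure D4:**
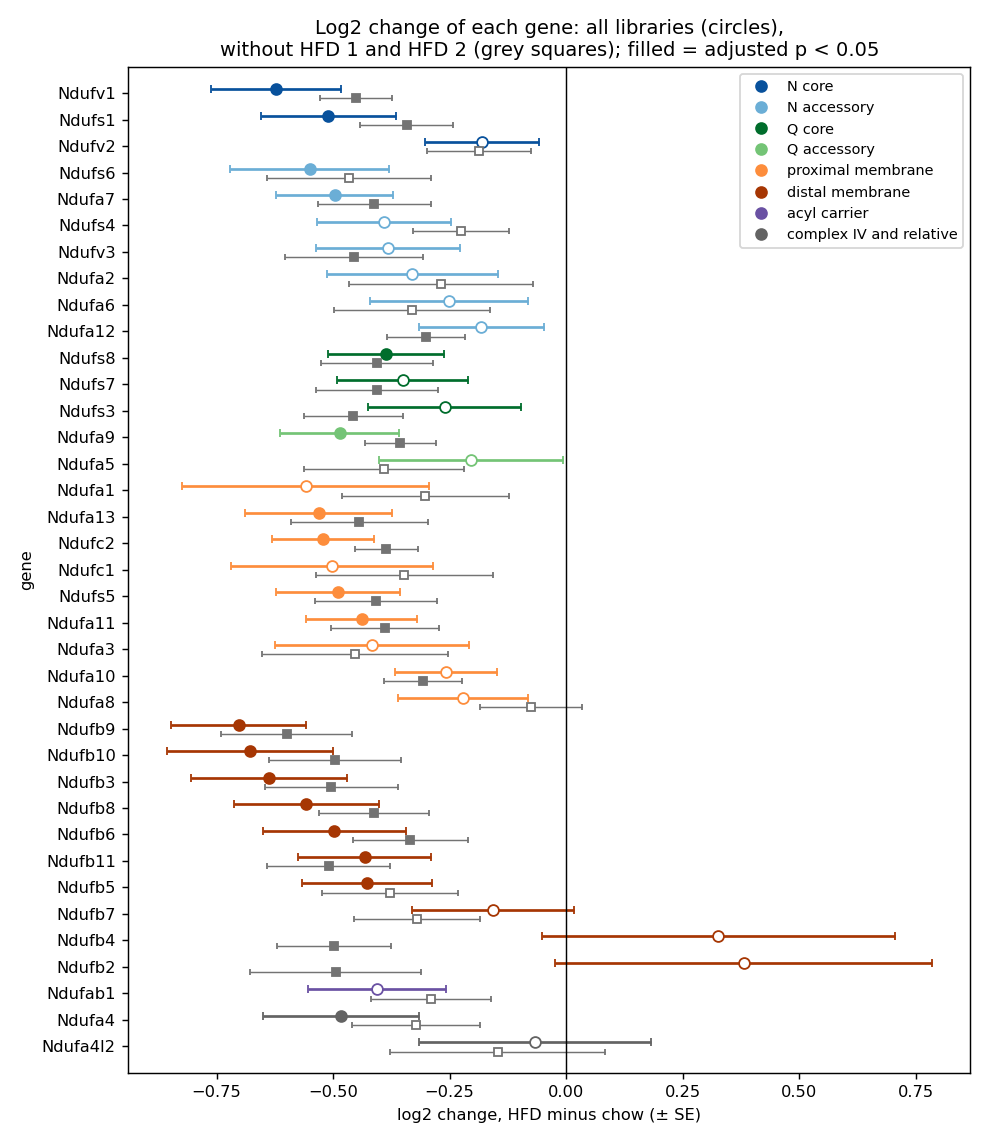
Log2 change (HFD minus chow) ± SE of 37 of the 38 genes from all 20 libraries (circles, coloured by part of the complex) and without HFD 1 and HFD 2 (grey squares); filled symbols have an adjusted p under 0.05. Nearly every circle lies between −0.70 and 0, the exceptions being Ndufb4 and Ndufb2, whose squares lie at −0.50 and −0.49.

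Promoter sequence was set beside these values because many members moved together. RefSeq windows of 300 bases (250 before to 50 after the start, GRCm38.p6) were found for 33 of the 38 members by symbol. The 100 bases directly before the start are shown 5′ to 3′ for Ndufv1 and Ndufs8, core members that were lower, for Ndufv2 and Ndufab1, which were not called, and for Ndufb10 and Ndufs6, which were lower and were picked after their motifs were seen. Capitals mark a match to the motif of the factor NRF1, an activator of respiratory chain genes, searched as GCGCNTGCG on both strands. The windows are chr19:4012756-4012855 for Ndufv1, chr19:3912775-3912874 for Ndufs8, chr17:66101560-66101659 for Ndufv2, chr7:122101849-122101948 for Ndufab1, chr17:24724424-24724523 for Ndufb10 and chr13:73328483-73328582 for Ndufs6, all on the minus strand.
Ndufv1: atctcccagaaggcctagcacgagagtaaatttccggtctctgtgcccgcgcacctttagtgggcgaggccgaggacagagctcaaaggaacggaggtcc
Ndufs8: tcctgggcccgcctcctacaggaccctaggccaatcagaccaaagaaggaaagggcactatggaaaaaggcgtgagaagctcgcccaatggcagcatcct
Ndufv2: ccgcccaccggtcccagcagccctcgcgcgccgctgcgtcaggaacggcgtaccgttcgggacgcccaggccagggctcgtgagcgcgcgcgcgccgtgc
Ndufab1: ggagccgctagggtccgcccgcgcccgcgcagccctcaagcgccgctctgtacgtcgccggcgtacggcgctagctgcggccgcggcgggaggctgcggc
Ndufb10: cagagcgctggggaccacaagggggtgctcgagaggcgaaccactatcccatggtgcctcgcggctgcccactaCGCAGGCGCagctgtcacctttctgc
Ndufs6: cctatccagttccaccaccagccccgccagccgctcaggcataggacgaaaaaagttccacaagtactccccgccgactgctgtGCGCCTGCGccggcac

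The match begins 26 bases before the start in Ndufb10 and 16 bases before it in Ndufs6, and the other 4 sequences hold none. Over the whole windows, 9 of 33 members (27.3%) held the NRF1 motif, against 6.31% of 32851 windows in the table. For every motif, a member was counted when any of its windows held it, while the background counts single windows. Some members, such as Ndufa5 and Ndufa7, have more than 1 window, so the 2 shares are not in the same unit. The YY1 motif AAGATGGCG was in 5 members (15.2%, against 1.40%), and the cyclic AMP response element TGACGTCA in 3 (9.09%, against 1.79%). The ETS motif CCGGAAGT, read by the factor GABP, was in 1 member (3.03%, against 3.89%), the Sp1 motif GGGGCGGGG in 5 (15.2%, against 11.4%), and the ERR motif TCAAGGTCA in 0 (against 0.423%). The boxes CCAAT (10 members, 30.3%, against 37.4%) and TATAAA (4 members, 12.1%, against 13.6%) were searched in the same way. No motif overlap was removed, and a match describes letters, not a binding site.

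Calls were also counted by the NRF1 motif, with no test. With all libraries, of the 9 members that hold it 4 were lower in HFD (median log2 change −0.25), and of the 24 that do not 12 were lower (median −0.43). Without HFD 1 and HFD 2, the holders Ndufb4 (−0.50), Ndufb10 (−0.50), Ndufs5 (−0.41), Ndufa11 (−0.39) and Ndufa12 (−0.30) were called lower. The holders Ndufs6 (−0.47), Ndufa5 (−0.39), Ndufa6 (−0.33) and Ndufa8 (−0.08) were not called then. In that fit the median of all 38 members was −0.39. Ndufb4 had 0.33 with all libraries. Ndufa8, the member nearest to 0 without HFD 1 and HFD 2 (−0.08), holds the motif at 2 places, 30 and 9 bases before the start. Ndufb4, among the lower members in that fit (−0.50), holds it 190, 78 and 21 bases before the start.

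Levels differed widely between members. Per kilobase of the gene length implied by the deposited FPKM values, the chow mean was 149 ± 31.2 CPM per kb for Ndufa4, 105 ± 19.4 for Ndufb11 and 99.5 ± 14.4 for Ndufb10. Ndufb11 and Ndufb10 lie within 1 SD of each other. At the other end stood Ndufb4 at 2.49 ± 0.521, Ndufab1 at 1.90 ± 0.285, Ndufa4l2 at 1.31 ± 0.326 and Ndufb2 at 0.636 ± 0.208 CPM per kb, and the median member was at 41.3. Lengths differ between annotated genes for reasons other than the expressed transcript. Ndufb2 was counted over 5628 bases and Ndufab1 over 6883, and their values per kb depend on that length. Without division by length, Ndufb4 at 4.77, Ndufab1 at 13.1, Ndufa4l2 at 1.43 and Ndufb2 at 3.58 CPM also had the lowest chow means. The next lowest was Ndufa11 at 18.5 CPM. Per kb in HFD, Ndufa4 kept the top place and Ndufb4, Ndufab1, Ndufa4l2 and Ndufb2 the last 4.

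Within a diet the members varied together. Over 703 pairs of members, the median Pearson r of log2 CPM was 0.84 across the 10 chow libraries and 0.53 across the 10 HFD libraries. Without chow 2 the chow value was 0.73, without HFD 1 and HFD 2 the HFD value was 0.86, and it was 0.71 when HFD 6 was left out too. These are descriptions over libraries that share their scaling and their length bias. The SD of log2 CPM between chow libraries ran from 0.09 for Ndufa9 to 0.46 for Ndufa2.

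The genes whose log2 CPM followed the members' mean most closely over the 20 libraries were Gm10250 (r = 0.975), Cox7a2 (r = 0.971), Atp5j2 (r = 0.968), Gm11273 (r = 0.967) and Dynlrb1 (r = 0.962). Cox7a2 belongs to complex IV and Atp5j2 to ATP synthase, Dynlrb1 is a dynein light chain, and the annotation types Gm10250 as a processed pseudogene. Each of these 5 genes was lower in HFD, with log2 changes between −0.55 for Cox7a2 (edgeR adjusted p = 0.0102) and −0.35 for Dynlrb1 (adjusted p = 0.0360).

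The other respiratory complexes showed the same direction. Of 41 tested nuclear genes of complexes II to V 25 were lower and 1 higher (median −0.49), with the same 7.05% background, and 25 were lower and 0 higher without HFD 1 and HFD 2 (median −0.40). By complex, 3 of 4 were lower for complex II, 7 of 9 for complex III, 6 of 11 for complex IV and 9 of 17 for ATP synthase. These counts were 4 of 4, 8 of 9, 5 of 11 and 8 of 17 without HFD 1 and HFD 2. Sdhd, a membrane anchor of succinate dehydrogenase, fell from 174 ± 14.8 to 116 ± 27.7 CPM (log2 change −0.59, edgeR adjusted p = 0.00454). Uqcrc1, a core protein of complex III, fell from 262 ± 19.7 to 168 ± 45.2 CPM (−0.64, adjusted p = 0.00389). The exception upward was Atp5l, at 2.99 ± 0.513 CPM in chow and 31.3 ± 63.6 in HFD, whose change was −0.14 (adjusted p = 0.343) without HFD 1 and HFD 2.

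Assembly factors of complex I build it without staying in it. Of 18 tested 6 were lower and 0 higher (median −0.33), and 6 lower and 0 higher without HFD 1 and HFD 2, against backgrounds of 7.05% and 10.4% of all tested genes lower. Foxred1 fell from 34.2 ± 1.89 to 22.7 ± 5.46 CPM (log2 change −0.59, SE 0.135, edgeR adjusted p = 0.00365) and Ndufaf1, which helps build the membrane arm, from 36.0 ± 2.26 to 25.6 ± 5.87 CPM (−0.49, adjusted p = 0.0105). Ecsit, Dmac2, Acad9 and Timmdc1 were the other 4, and Ndufaf2, Ndufaf3, Ndufaf4, Ndufaf5, Ndufaf6, Ndufaf7 and Ndufaf8 were not called.

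The subunits of complex I encoded in the mitochondrial genome could not be compared across all libraries. All 6 that were tested were higher with all libraries, with a median log2 change of 6.36, and HFD 1 and HFD 2, the libraries made up mostly of mitochondrial counts, entered that value. Without HFD 1 and HFD 2 the median was −0.42, with mt-Nd2, mt-Nd4 and mt-Nd6 lower (−0.38, −0.46 and −0.68), mt-Nd1 and mt-Nd5 not called (−0.29 and −0.48), and mt-Nd3, at 0.105 ± 0.0906 CPM in chow, higher (3.80). mt-Nd4l was too low to be tested.

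Other mitochondrial lists had between 2 and 6 lower members, against the 7.05% background. Of the tricarboxylic acid cycle list, which includes pyruvate dehydrogenase, 6 of 18 were lower and 0 higher, led by Dlat (−0.47, edgeR adjusted p = 0.00141) and Pdhx (−0.58, adjusted p = 0.00708). Of a list of other mitochondrial proteins 6 of 17 were lower, with Phb (−0.50) and Immt (−0.49) at the smallest p-values. Of iron-sulfur cluster makers 3 of 14 were lower, with Nfu1 (−0.36) and Glrx5 (−0.42) first, and of electron carriers and entry points 2 of 17, Coq9 (−0.54) and Coq5 (−0.29), of coenzyme Q synthesis, a share near the background. Without HFD 1 and HFD 2, against 10.4% of all genes lower and 17.9% higher, 8 of 18 were lower and 1 higher in the tricarboxylic acid cycle list, 7 of 17 lower and 1 higher among the other mitochondrial proteins, 4 of 14 lower among the iron-sulfur cluster makers and 3 of 17 lower among the electron carriers and entry points.

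Regulators of mitochondrial biogenesis did not pass the test. Of 13 tested 0 were lower and 0 higher with all libraries. Without HFD 1 and HFD 2, 2 of 13 were lower and 2 higher, against backgrounds of 10.4% and 17.9% of all tested genes. Esrra, the receptor ERR alpha, was lower (−0.36, edgeR adjusted p = 0.0110) and Ppargc1b was lower (−1.08). Ppargc1a, a coactivator of respiratory genes, was higher (1.63, edgeR adjusted p = 0.0235) and Pprc1 was higher (0.69). Ppargc1a read 2.15 to 5.19 CPM in chow and 3.00 to 54.8 CPM in HFD 3 to 10, with 2 HFD libraries above the chow range. The log2 changes with all libraries and without HFD 1 and HFD 2 were 0.21 and 0.19 for Nrf1, −0.05 and 0.11 for Yy1, and −0.18 and −0.03 for Gabpa, with no call in either fit.

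**Figure D5:**
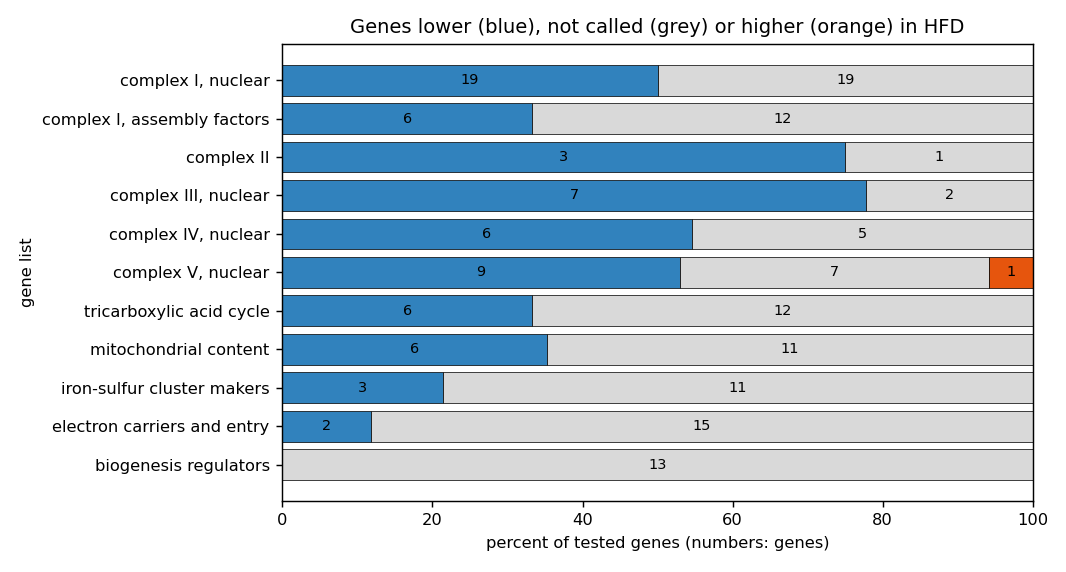
Share of tested genes called lower (blue), not called (grey) or higher (orange) in HFD with all 20 libraries, for complex I and related gene lists, with the number of genes in each bar. Complex I has 19 of 38 lower, and the biogenesis regulators have 0 of 13.

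Markers of other liver cell types moved between the diets too, and in bulk liver fewer cells of a type and less RNA per cell cannot be told apart. Of 14 macrophage markers 12 were higher in HFD and 0 lower, against a background of 13.0% higher, and 13 without HFD 1 and HFD 2, against 17.9%. Gpnmb had 0 counts in 1 chow library and no other macrophage marker was at 0 in any library. Their summed level was 403 to 740 CPM in chow and 1489 to 2751 CPM in HFD, without overlap. Lyz2, the macrophage lysozyme, rose from 83.8 ± 12.7 to 490.3 ± 151 CPM. All 6 tested neutrophil markers of 9, 5 of 10 lymphocyte markers, 4 of 9 stellate cell and fibroblast markers and 1 of 5 cholangiocyte markers were higher, the last a share near the background, and 0 of 8 endothelial markers were called. Without HFD 1 and HFD 2 all 7 tested neutrophil markers, 5 of 10 lymphocyte, 6 of 9 stellate cell and fibroblast, 2 of 5 cholangiocyte and 3 of 8 endothelial markers were higher, the last being Cdh5, Lyve1 and Pecam1. Ly6g, a defining neutrophil marker, was at 0 counts in all 10 chow libraries and in 2 HFD libraries. The summed neutrophil level was 3.95 to 5.07 CPM in chow and 21.4 to 454 CPM in HFD. The part of these cells in the lower complex I levels was not tested.

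Of 14 hepatocyte markers 5 were lower and 0 higher (median −0.58), against backgrounds of 7.05% lower and 13.0% higher. Without HFD 1 and HFD 2, 6 of these markers were lower and 1 higher (median −0.32), against 10.4% and 17.9%. Their summed level was 110130 to 167160 CPM in chow and 27342 to 165706 CPM in HFD, with overlap, and at least 82374 CPM in HFD 3 to 10. Ttr, which encodes transthyretin, fell from 6580 ± 1152 to 3084 ± 1123 CPM (log2 change −1.09, edgeR adjusted p = 0.00217). Fgb was the marker called higher without HFD 1 and HFD 2 (0.98, edgeR adjusted p = 0.00722), and was not called with all libraries (0.66). Alb was called in neither fit (−0.57 and −0.32). The log2 change was below 0 for 10 of the 14 markers in either fit. No hepatocyte marker was at 0 counts in any library. Within the nuclear protein-coding counts, the 38 complex I genes took 0.294% to 0.392% in chow and 0.209% to 0.354% in HFD, ranges that overlap. HFD 1 (0.347%) and HFD 2 (0.354%) had the highest HFD shares, above the chow median of 0.345%. HFD 5 and HFD 9 came next, at 0.327% each.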

How the data were processed

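Per the labels' protocols and the submitters' processing notes, liver RNA was sequenced, fastp cleaned the reads, and the genome build was mm10. Aligner, counter, gene models and strand setting are not stated in the sources used here. The authors deposited whole-number counts per gene and library, 1 column per sample and none pooled. They also deposited FPKM values, and each FPKM is its count divided by the column total and by 1 gene length (checked in 27216 expressed genes, tolerance 1e-06 of the value). GENCODE M21 held 55141 of the 55401 gene IDs and gave the GRCm38 coordinates.

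Counts entered edgeR 4.0.16 (R 4.3.3) after filterByExpr, with a minimum count of 10 and a total of at least 15. Libraries were scaled by TMM, diet was the single term of a robust quasi-likelihood model, and two-sided F tests were adjusted by Benjamini-Hochberg over all tested genes. A gene is called lower or higher at an adjusted p under 0.05. The SE of an edgeR log2 change was derived from the test, as the absolute log2 change divided by the square root of F. CPM values use TMM-scaled library sizes, and log2 CPM values add a prior count of 2. Library totals were 34727227 to 49065587 counts in chow and 20111896 to 90033879 in HFD. Precision was lowest in HFD 1 and HFD 2, whose nuclear protein-coding genes held 1906287 and 2650330 of these counts.

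The members, the gene lists, the roles and the alternatives were chosen with earlier results of these data known. Values in full are given for the core subunits, the 5 other members with the lowest and the 3 with the highest log2 change, Ndufa4, Ndufa4l2 and Ndufab1, and in part for others; 1 member is counted in every total but not reported here on its own. For each related list, up to 2 genes with the smallest p were named, which are not typical of it; other genes named there, the Ndufv1 to Ndufv2 ratio and Apoe were picked with their values in view. The rule also asked for members whose call differs from the majority, and there was none, since 19 were lower and 19 not called.

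Alternatives were RLE, upper-quartile or library-total scaling, DESeq2 1.42.0, limma 3.58.1 voom with and without quality weights, edgeR without robust dispersion, other filters, nuclear protein-coding genes only, limma-trend on log2 of the FPKM deposited by the authors plus 1 or 0.1, a replicate block, and fits without each library or sets of them. No 2 libraries were as close as counting noise alone would make them, a chi-square per gene near 1 (closest were chow 3 with chow 5, at 10.6, and HFD 4 with HFD 5, at 14.1, using genes whose counts summed to 50 or more). The test was also run on simulated data with set changes in genes drawn from all those tested. It recovered 7 of 67 genes changed 1.5-fold, 39 of 67 changed 2-fold and 62 of 66 changed 4-fold. Of its 115 calls 7 were false. The simulated libraries had the real totals but 1 shared make-up of genes, without the mitochondrial excess of HFD 1 and HFD 2. The recovered shares need not hold for the real libraries. A member that was not called may still differ between the diets. Python 3.11.15, pandas 2.3.3 and matplotlib 3.10.9 made the tables and figures.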

Additional observations from a re-analysis of the deposited data

Results flagged for a closer look

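In each diet the highest and the lowest of the 10 libraries were compared with the rest for every member, and a library is listed where its gap to the nearest other library was large against the group's range by Dixon's criterion. Of 76 sets (38 genes in 2 diets) 24 such gaps were found; chance flags about 1 in 20 sets, and the members are not independent of each other.

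Chow 2 was far above the other chow libraries for 18 members: Ndufa4 at 311 CPM, Ndufa10 at 206 CPM, Ndufb10 at 159 CPM, Ndufb11 at 135 CPM, Ndufa13 at 129 CPM, Ndufv2 at 123 CPM, Ndufa8 at 109 CPM, Ndufa6 at 108 CPM, Ndufb5 at 100.5 CPM, Ndufs4 at 95.6 CPM, Ndufb9 at 93.9 CPM, Ndufb7 at 76.8 CPM, Ndufa2 at 62.6 CPM, Ndufs7 at 41.6 CPM, Ndufc1 at 40.0 CPM, Ndufa5 at 37.6 CPM, Ndufb4 at 7.08 CPM and Ndufb2 at 6.43 CPM. It was far below them for Ndufs1, at 67.8 CPM against 87.0 CPM in the next library.

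HFD 1 was far above the other HFD libraries for Ndufb7, at 96.9 CPM, and Ndufa12, at 38.7 CPM. HFD 2 was far above them for Ndufb4, at 27.6 CPM. HFD 6 was far below them for Ndufb5, at 27.7 CPM, and Ndufs8, at 29.3 CPM.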

How the results depend on the processing

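Under the alternatives, 0 members were higher in any fit, and in the fits without 1 library each 13 (without chow 6) to 21 (without HFD 1) of the 38 members were lower, with medians from −0.47 to −0.36 and 4.81% to 8.26% of all tested genes lower. Of the 19 lower members 13 passed in each of these 20 fits, among them Ndufa11, Ndufa13, Ndufa7, Ndufa9, Ndufb10, Ndufb3, Ndufb8, Ndufb9, Ndufc2, Ndufs1, Ndufs5 and Ndufv1. Ndufa4 lost its call in 13 of them. The number of lower members was 15 with RLE or upper-quartile scaling (5.96% and 5.49% of all tested genes lower), 20 with DESeq2 (9.10%), 22 with voom (9.14%), 27 with voom and quality weights (18.9%), 14 with no filter (2.63%) and 18 with nuclear protein-coding genes only (7.17%). It was 0 with library totals alone and 0 and 0 on log2(FPKM + 1) and log2(FPKM + 0.1), where the median was −0.79 and −0.91; these scales include mitochondrial counts, and the median of all tested genes was then −0.14 and −0.39 on the 2 FPKM scales. It was 11 without HFD 6, 8, 9 and 10 (6.09%).

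The replicate numbers did not pair the samples (correlations of −0.111 to 0.126, over 0.1 in 2 of 10 numbers, and 1 chow library fitting its own number best); with them as a replicate block 11 members, 661 genes (4.55%) lower and 913 higher were called. Over all genes, 93 were lower and 507 higher with library totals alone, 285 and 431 on log2(FPKM + 1), 209 and 286 on log2(FPKM + 0.1), 2749 lower with voom and quality weights, 1539 lower without HFD 1 and HFD 2, 1971 lower without HFD 1, 2, 6 and 10, and 2229 lower and 2956 higher without chow 2, HFD 1, HFD 2 and HFD 6, against 1025 and 1886. The share of called genes that were higher was 64.8%, and 84.5% with library totals alone, 76.7% with no filter and 48.7% with voom, with or without quality weights. The settings without HFD 6 and 10, without HFD 1, 2, 6 and 10, and without chow 2 together with HFD libraries were chosen after seeing the data.

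The change of Ndufb2 turned to −0.45 with library totals alone, −0.26 with voom, −0.36 with quality weights, −0.17 and −0.38 on the FPKM scales, −0.013 with the replicate block, −0.49 without HFD 1 and HFD 2, −0.41 without HFD 1, 2, 6 and 10, −0.36 without chow 2, HFD 1 and HFD 2, and −0.28 when HFD 6 was left out too. Without each library it ran from −0.0097 (without HFD 2) to 0.51. That of Ndufb4 turned to −0.49, −0.31, −0.44, −0.36, −0.50, −0.093, −0.50, −0.50, −0.42 and −0.40 in the same order and to −0.34 with DESeq2, and ran from −0.32 (without HFD 2) to 0.42. Ndufa4l2 turned to 0.12 without HFD 6, 8, 9 and 10 and to 0.0015 without HFD 6 and 10, and ran from −0.13 to 0.048 (without HFD 6). Without HFD 6, 8, 9 and 10 Ndufa5 turned to 0.047 and Ndufb7 to 0.0066, and without chow 2, HFD 1, HFD 2 and HFD 6 Ndufa8 turned to 0.038. These 6 members were not called with all libraries. The cause was not tested.

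Of complexes II to V 25 genes were lower, 11 with the replicate block, 14 without HFD 6, 8, 9 and 10 and 0 with library totals alone. Depth limits HFD 1 and HFD 2, where members rested on medians of 128 and 205 counts.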
